A study of Mus musculus with 4 samples.

Results

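Dermatopontin and the major chains of collagen VI are proteins of the connective tissue matrix, and the genes described here are Dpt, Col6a1, Col6a2 and Col6a3, 4 of the 18193 genes that the arrays name through a probe set with a single gene symbol. Every probe set annotated to one of these symbols alone was kept, 5 in all, and each gene is described by its brightest probe set, averaged over the arrays. The genes were picked with the results of the VEGFD against Apex comparison in view. Their values in that comparison are therefore a description, and no test of them is given.

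Cells labelled as endothelial cells of collecting lymphatic vessels that drained a tumour were compared between 2 groups of mice. Each group had 2 arrays labelled as biological replicates. In the VEGFD group the flank tumours came from 293EBNA cells, a human embryonic kidney line, transfected with a vector that holds VEGFD, the gene of a growth factor for lymphatic and blood vessels. In the Apex group the same cells carried the empty APEX vector. In both groups tumours reached 2000 mm3, Patent Blue V injected into the tumour showed the draining vessels, and the cells were taken by magnetic sorting after microdissection. The sources used here do not give the strain, sex or age of the mice, the number of animals behind an array, or whether the transfected cells were 1 clone. The p-values below therefore measure the spread between these arrays, which may be technical.

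Collagen VI is assembled inside the cell as a heterotrimer of the α1, α2 and α3 chains encoded by Col6a1, Col6a2 and Col6a3, then joined into larger units and secreted to form beaded microfilaments around cells and next to basement membranes. Dermatopontin is a small secreted protein that binds decorin and fibronectin and helps collagen fibrils to form. Fibroblasts are a main source of both in connective tissue, and mutations of the human collagen VI chain genes cause muscular dystrophies.

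Every array had the same trimmed mean, 150.0 with 2% of its values cut from each end. Median signals ran from 23.8 to 26.3 in VEGFD arrays and from 27.0 to 30.4 in Apex arrays. Signals of the 42 spiked bacterial and phage control probe sets had a median of 514 in VEGFD replicate 2, against 758 in VEGFD replicate 1 and 674 and 749 in Apex replicates 1 and 2. Endothelial markers were uneven. Signals of Pecam1, the CD31 gene, were 3.25 and 2.22 in VEGFD replicates 1 and 2, and 2.92 and 141 in Apex replicates 1 and 2. Signals of Prox1, whose product sets lymphatic identity, were 3.19 and 5.94 in VEGFD arrays and 11.2 and 11.6 in Apex arrays, below the filter signal of 25.3 on every array. Only some markers were above the filter signal on every array. Eng, the endoglin gene, had 829 and 271 in VEGFD arrays and 417 and 765 in Apex arrays. Flt4, which encodes the receptor VEGFR3, had 161 and 145 in VEGFD arrays and 42.6 and 247 in Apex arrays. Cdh5 lay near the filter signal, at 24.7 and 25.3 in VEGFD arrays and 24.6 and 27.1 in Apex arrays. Of 14 pan-endothelial markers, 7 and 3 exceeded the filter signal in VEGFD arrays, against 6 and 14 in Apex arrays. Of 9 lymphatic markers, 5 and 5 exceeded it in VEGFD arrays, against 4 and 7 in Apex arrays. The log2 ratio of 3′ to 5′ probe sets, a sign of RNA quality, was -0.257 and -0.236 for Gapdh in VEGFD arrays and -0.0924 and 0.152 in Apex arrays, without overlap, and for Actb it was 0.377 and 0.179 in VEGFD arrays and 0.315 and 0.538 in Apex arrays, with overlap. The part of RNA quality in the signals below was not tested. The labels of the extraction step also name lymph node cells. The groups are named by their labels throughout.

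All 4 genes had less signal in both VEGFD arrays than in either Apex array. Dpt, Col6a1 and Col6a2 were low in both VEGFD arrays, whereas Col6a3 was low in VEGFD replicate 1 and near the Apex arrays in VEGFD replicate 2. In these sorted cells a smaller number of cells of a type and less RNA per cell cannot be told apart. Of the 11680 genes bright enough to be tested, 322 (2.76%) were at least 2-fold lower in VEGFD arrays without overlap and 124 (1.06%) were at least 2-fold higher without overlap. With arrays centred on their medians these counts were 236 lower and 188 higher, and with arrays centred on the spiked controls they were 217 lower and 195 higher. The choice of the 4 genes rests on this comparison, so their place among the lower genes is no result. Genes lower without overlap at any size made up 21.8% of those tested, genes higher without overlap 16.6%, and genes lower at an unadjusted limma p under 0.05 made up 3.76%. Each log2 change below is the VEGFD mean of log2(signal + 16) less the Apex mean, and its standard error (SE) comes from a limma fit to all 11680 genes.

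**Figure D1:**
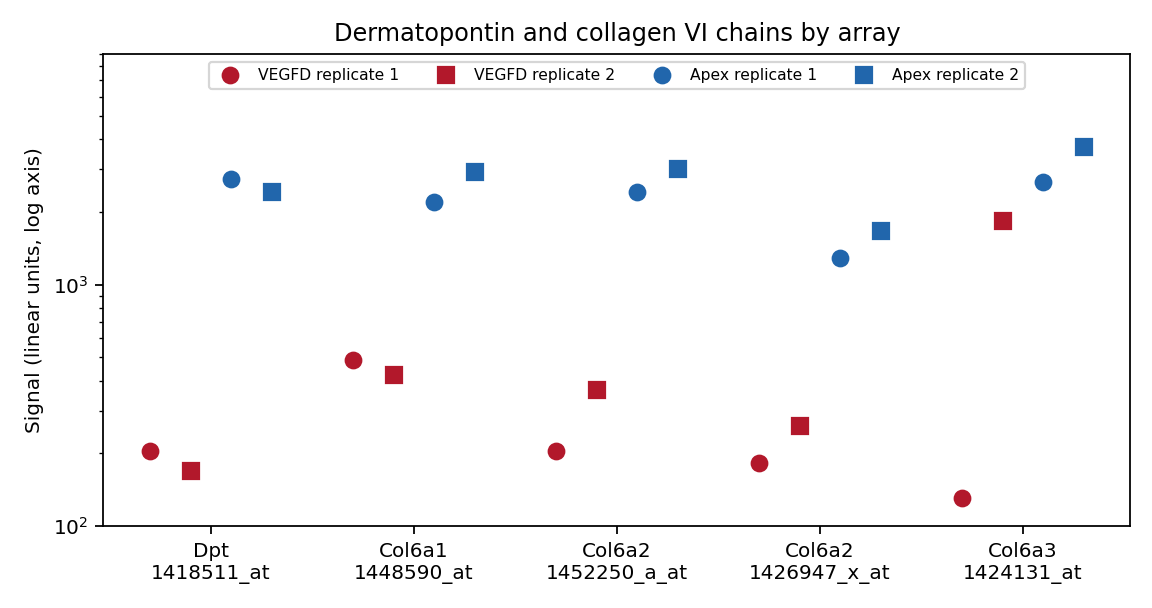
Signal (log axis) of the 5 probe sets of Dpt, Col6a1, Col6a2 and Col6a3 on each array, with VEGFD arrays in red and Apex arrays in blue. Each point is 1 array, and the VEGFD point of Col6a3 at 1829 stands close to its Apex points while the other VEGFD points lie between 130 and 489.

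Dpt, which encodes dermatopontin, had signals of 204 and 168 in VEGFD replicates 1 and 2, against 2725 and 2407 in Apex replicates 1 and 2. The arrays of each group lay close together and the groups were far apart, with means of 186 ± 25.1 in VEGFD arrays and 2566 ± 225 in Apex arrays (SD, n = 2 each). The mean Apex signal was 13.8 times the mean VEGFD signal, and the log2 change was -3.68 ± 0.23 (SE). The difference between the VEGFD arrays was 0.25 on the log2 scale, and 62.2% of tested genes differed between these arrays by at least as much. Dpt has 1 probe set, 1418511_at, so no other probe set checks it.

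Col6a1, which encodes the α1 chain, had signals of 489 and 423 in VEGFD arrays and 2208 and 2919 in Apex arrays. Its VEGFD level was the steadiest among the collagen VI chains, with a difference of 0.20 on the log2 scale between the VEGFD arrays and a log2 change of -2.44 ± 0.25 (SE). The mean Apex signal was 5.62 times the mean VEGFD signal. Its single probe set is 1448590_at.

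Col6a2, which encodes the α2 chain, had signals of 204 and 366 in VEGFD arrays and 2429 and 3018 in Apex arrays with its brighter probe set, 1452250_a_at. VEGFD replicate 2 had 1.79 times the signal of VEGFD replicate 1, and both lay far below the Apex arrays. The log2 change was -3.23 ± 0.33 (SE). The second probe set, 1426947_x_at, is annotated to the same source sequence and had signals of 182 and 259 in VEGFD arrays and 1289 and 1660 in Apex arrays. It put the arrays in the same order, with a log2 change of -2.66.

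Col6a3, which encodes the α3 chain, had signals of 130 and 1829 in VEGFD arrays and 2671 and 3700 in Apex arrays. The mean Apex signal was 24.5 times that of VEGFD replicate 1 and 1.74 times that of VEGFD replicate 2. The log2 change of -2.60 ± 1.14 (SE) averages these unlike arrays, as its SE shows. Leaving out VEGFD replicate 1 gave -0.78, and leaving out VEGFD replicate 2 gave -4.43. Its single probe set is 1424131_at.

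**Figure D2:**
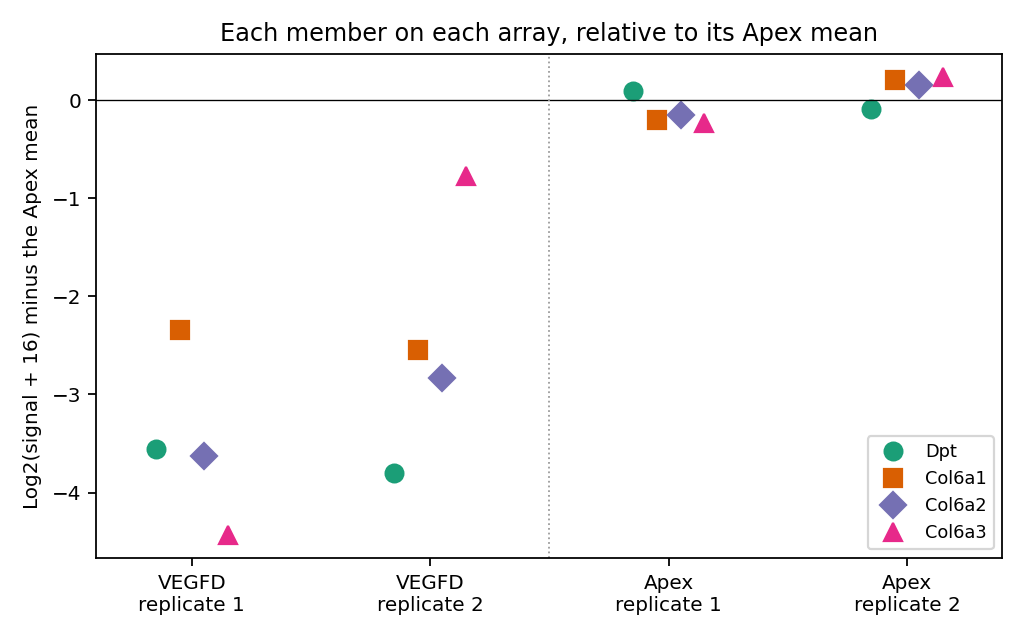
Log2(signal + 16) of each gene on each array minus its own mean over the Apex arrays; each point is 1 array. Dpt, Col6a1 and Col6a2 lie between -3.80 and -2.34 on both VEGFD arrays, and Col6a3 lies at -4.43 on VEGFD replicate 1 and -0.78 on VEGFD replicate 2.

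The 2 VEGFD arrays differed in the balance of the chain signals, which the Apex arrays did not to a like degree. Relative to the Apex mean, the log2 ratio of Col6a2 to Col6a3 was 0.80 in VEGFD replicate 1 and -2.06 in VEGFD replicate 2, against 0.078 and -0.078 in Apex replicates 1 and 2. For Col6a1 to Col6a3 it was 2.09 and -1.77 in the VEGFD arrays and 0.034 and -0.034 in the Apex arrays. The ratio of Col6a1 to Col6a2, with the brighter Col6a2 probe set, was 1.29 and 0.29 in VEGFD arrays, against -0.044 and 0.044 in Apex arrays. By that probe set Col6a1 was lower by less than Col6a2 in both VEGFD arrays. The second Col6a2 probe set, 1426947_x_at, gave the opposite order in VEGFD replicate 2. Its signal was 259 there, against 1289 and 1660 in Apex arrays. With 2 arrays a group these ratios carry no test of their own.

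The gap of Col6a3 between the VEGFD arrays, -3.66 on the log2 scale for replicate 1 minus replicate 2, was reached by 15 of 11680 tested genes, or 0.128%. Genes at least 2-fold apart made up 11.9% of tested genes between the VEGFD arrays and 4.89% between the Apex arrays. Of the 15, Col6a3 included, 9 were lower in VEGFD replicate 1. Besides Col6a3, those 9 were Sema7a and the cell cycle genes Pclaf, Ube2c, Cenpa, Cdc20, Bub1, Mki67 and Birc5. For example, Mki67 had signals of 36.9 and 697 in VEGFD arrays and 95.5 and 174 in Apex arrays. Cdc20 had 125 and 2282 in VEGFD arrays and 246 and 478 in Apex arrays. Both examples were picked with their values in view. The summed signal of 8 smooth muscle markers was 7258 and 17285 in VEGFD replicates 1 and 2 and 4590 and 5356 in Apex arrays, highest in VEGFD replicate 2 and in both VEGFD arrays above both Apex arrays. The part of these differences in the Col6a3 signal was not tested.

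**Figure D3:**
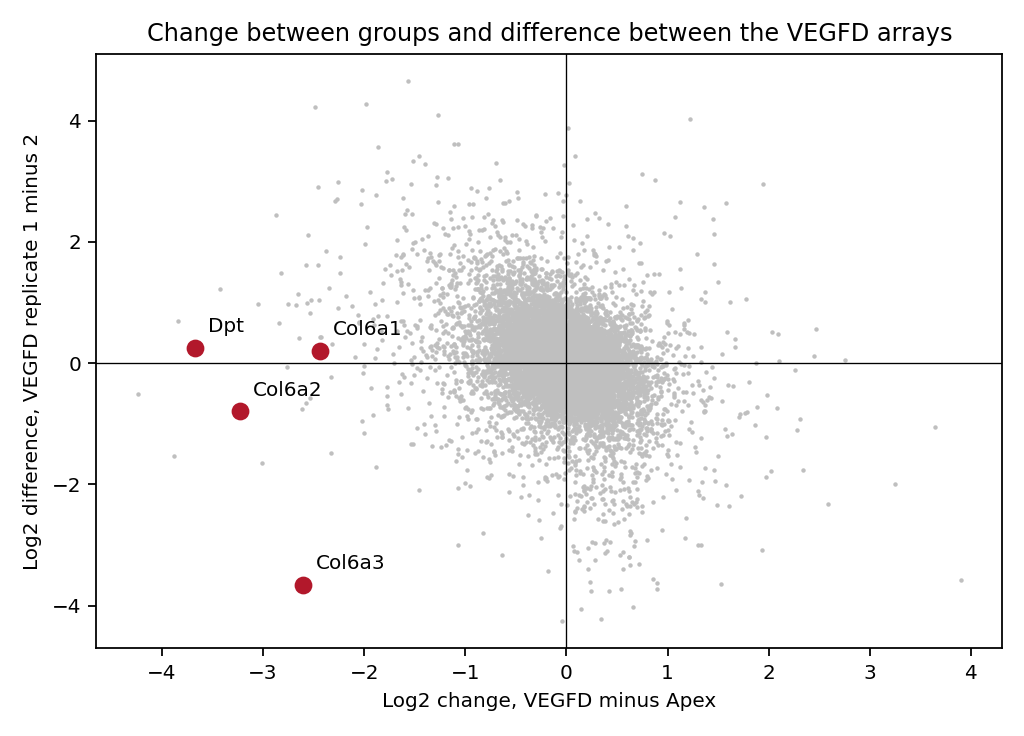
Log2 change between groups (VEGFD minus Apex, horizontal) against the log2 difference between VEGFD replicates 1 and 2 (vertical) for the 11680 tested genes in grey, with the 4 genes in red. All 4 lie to the left. On the vertical axis Dpt lies at 0.25, Col6a1 at 0.20, Col6a2 at -0.80 and Col6a3 at -3.66.

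The sequences around the annotated starts of the 4 genes are shown because their signals moved in the same direction and because Col6a1 and Col6a2 lie next to each other on chromosome 10, on the same strand, with no other measured gene between them. Each run holds 250 bases before and 50 bases from the start, 5′ to 3′ on the strand of the gene, from RefSeq on build GRCm38.p6, where the 4 symbols matched 5 starts. Dpt is on the plus strand at chr1:164796413-164796712. Col6a1 is on the minus strand at chr10:76725995-76726294, Col6a2 on the minus strand at chr10:76623581-76623880 for its outer start and chr10:76623355-76623654 for its inner start, and Col6a3 on the minus strand at chr1:90843922-90844221. Capitals mark matches, on either strand, to 5 motifs that were searched. They are the core promoter motif TATAAA, the promoter motif CCAAT, the Sp1-type motif GGGCGG, the AP-1 family motif TGANTCA and the TEAD family motif GGAATG. A match on the opposite strand is shown as its reverse complement, and the longer capital run at the inner start of Col6a2 holds overlapping matches to GGGCGG.
Dpt: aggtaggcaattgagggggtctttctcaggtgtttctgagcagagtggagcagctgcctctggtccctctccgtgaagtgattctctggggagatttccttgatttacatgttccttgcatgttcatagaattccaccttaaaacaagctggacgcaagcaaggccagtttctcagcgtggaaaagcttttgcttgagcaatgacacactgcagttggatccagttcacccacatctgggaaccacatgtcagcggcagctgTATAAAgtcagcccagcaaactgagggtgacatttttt
Col6a1: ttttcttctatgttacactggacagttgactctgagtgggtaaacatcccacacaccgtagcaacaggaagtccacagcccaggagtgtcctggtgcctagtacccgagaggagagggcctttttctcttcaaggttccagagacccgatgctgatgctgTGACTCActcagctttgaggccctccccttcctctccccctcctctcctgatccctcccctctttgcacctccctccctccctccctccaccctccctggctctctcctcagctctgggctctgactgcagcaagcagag
Col6a2, outer start: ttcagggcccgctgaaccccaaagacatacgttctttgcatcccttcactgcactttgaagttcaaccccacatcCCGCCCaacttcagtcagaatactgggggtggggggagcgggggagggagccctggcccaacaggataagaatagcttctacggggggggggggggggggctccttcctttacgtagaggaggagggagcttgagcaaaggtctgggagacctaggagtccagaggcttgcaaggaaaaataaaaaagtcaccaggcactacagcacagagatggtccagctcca
Col6a2, inner start: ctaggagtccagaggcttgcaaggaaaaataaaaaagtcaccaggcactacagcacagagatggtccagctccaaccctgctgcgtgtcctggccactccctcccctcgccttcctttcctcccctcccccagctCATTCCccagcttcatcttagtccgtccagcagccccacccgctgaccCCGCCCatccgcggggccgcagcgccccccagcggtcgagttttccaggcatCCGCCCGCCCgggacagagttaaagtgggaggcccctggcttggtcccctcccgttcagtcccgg
Col6a3: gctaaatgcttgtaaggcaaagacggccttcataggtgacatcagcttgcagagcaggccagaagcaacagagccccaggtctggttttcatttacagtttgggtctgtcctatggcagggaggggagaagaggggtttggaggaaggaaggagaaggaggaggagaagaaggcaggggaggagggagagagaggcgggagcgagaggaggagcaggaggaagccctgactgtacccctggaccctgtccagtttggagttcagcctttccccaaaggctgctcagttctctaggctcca

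No motif of the 5 was shared by all 4 genes in these windows. Dpt held 1 TATAAA, which 13.6% of 32851 mouse promoter windows of this length hold, beginning 12 bases after the annotated start. Col6a1 held 1 TGANTCA, 90 bases before its start, which 7.81% of windows hold. Col6a2 held GGGCGG once at its outer start and 3 times at its inner start, against 35.7% of windows with at least 1 match, and the inner start also held 1 GGAATG, found in 14.7% of windows. Col6a3 held none of the 5, and CCAAT, found in 37.4% of windows, was in none of the sequences shown. The share of G and C was 48.7% at Dpt, 57.3% at Col6a1, 56.7% and 64.3% at the outer and inner starts of Col6a2, and 56.3% at Col6a3. A match is a description of the letters and not a binding site, and no match says nothing about the factor.

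Among the remaining chains of the family, Col6a4 and Col6a5 were measured and lay below the filter on dim genes, a signal of 25.3 for the mean over arrays. The brighter Col6a4 probe set had signals of 4.12 and 5.58 in VEGFD arrays and 27.0 and 32.7 in Apex arrays, while its second had 11.2 and 6.92 in VEGFD arrays and 6.87 and 5.26 in Apex arrays, so the probe sets opposed each other. Col6a5 had signals of 18.4 and 12.0 in VEGFD arrays and 10.1 and 6.79 in Apex arrays. Neither was tested, and Col6a6 is not analysed here.

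Receptors, matrix partners and processing enzymes of collagen VI and dermatopontin had changes in both directions, and none passed the test. The members were chosen for their change in this comparison and the partners were not, so the sizes are not set against each other. No gene of 11680 passed an adjusted p of 0.05 in the limma fit (0%), and at an unadjusted p under 0.05 there were 666 (5.7%). Over all tested genes 53.7% were lower in VEGFD arrays and the median log2 change was -0.035. Of 6 tested receptor genes 5 were higher and 1 lower, 0 passed in either direction, and the median was 0.32. Itgb1, which encodes the β1 integrin subunit shared by collagen receptors, had signals of 3323 and 3485 in VEGFD arrays and 1968 and 1592 in Apex arrays, a log2 change of 0.94 ± 0.22 (SE) and a limma adjusted p of 0.773. Itga1, which encodes the α1 integrin subunit that pairs with it, had 41.5 and 43.2 in VEGFD arrays and 6.54 and 24.5 in Apex arrays and a log2 change of 0.95 ± 0.38, or 0.43 with a pseudocount of 64 and 0.52 without Apex replicate 1. The anthrax toxin receptor genes Antxr1 and Antxr2, whose products bind collagen VI, had log2 changes of -0.42 ± 0.25 and 0.40 ± 0.29 (SE), and Cspg4, which encodes the collagen VI-binding proteoglycan NG2, had 0.25 ± 0.66.

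Of 8 tested matrix partners of collagen VI, 3 were higher and 5 lower with a median of -0.011, and 0 passed. The median was 0.11 with arrays centred on their medians, 0.17 with the spiked controls and 0.034 with quantile normalization, so it has no settled sign. Bgn and Dcn, which encode the small proteoglycans biglycan and decorin that attach to collagen VI, had log2 changes of 0.14 ± 0.22 and -0.0018 ± 0.43 (SE). Bgn had signals of 9816 and 8253 in VEGFD arrays, against 7234 and 9204 in Apex arrays. The groups overlapped for both genes. The list did not hold Tgfbi, a gene named below whose product also binds collagen VI. Its log2 change was -3.02, without overlap. Tnxb, which encodes the matrix glycoprotein tenascin-X, was the 1 listed partner at least 2-fold lower without overlap. Tnxb had 180 and 25.3 in VEGFD arrays and 336 and 196 in Apex arrays. Its log2 change was -1.60 ± 0.76 (limma adjusted p = 0.825), -0.48 without VEGFD replicate 2, and -2.73 without VEGFD replicate 1, where it passed at a limma adjusted p of 0.0164 with the lone VEGFD array assumed to vary like the others.

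Dermatopontin's known partners gave 2 higher and 6 lower of 8 tested genes, a median of -0.067, which was 0.055 with median centring and 0.12 with the spiked controls, and 0 that passed. Fn1, the gene of fibronectin, had signals of 6931 and 4826 in VEGFD arrays and 5333 and 7085 in Apex arrays, and a log2 change of -0.088 ± 0.27 (SE). Tgfb1, the gene of a growth factor whose activity dermatopontin can raise, had 102 and 483 in VEGFD arrays and 101 and 281 in Apex arrays and a log2 change of 0.38 ± 0.79. Fn1 and Tgfb1 overlapped between groups. Itga3, which encodes an integrin subunit to which dermatopontin binds, had the largest change of the list, -1.04 ± 0.35 (limma adjusted p = 0.825), with 131 and 96.1 in VEGFD arrays and 186 and 328 in Apex arrays. It was -0.56 with averaged probe sets and -0.65 without Apex replicate 2.

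Interstitial collagens, which share cells and processing enzymes with collagen VI, had 4 higher and 4 lower of 8 tested genes, a median of 0.019 and 0 that passed. Col1a2, which encodes a chain of collagen I, had signals of 6122 and 6623 in VEGFD arrays and 5555 and 6846 in Apex arrays, a log2 change of 0.046 ± 0.21 (SE). Col3a1, the collagen III gene, had 5400 and 4545 in VEGFD arrays and 5360 and 5070 in Apex arrays, and -0.073 ± 0.20. Both genes overlapped between groups at high signal. Col5a2, a collagen V chain gene, was bright and higher without overlap, at 6253 and 6236 in VEGFD arrays and 4067 and 2859 in Apex arrays. Its log2 change was 0.87 ± 0.24 (limma adjusted p = 0.825), and that of Col1a1 was 0.82 ± 0.55 (SE), with overlap. Col5a3, a minor collagen V chain gene, had the largest change, -1.19 ± 0.48 (limma adjusted p = 0.825), with 45.8 and 142 in VEGFD arrays and 198 and 222 in Apex arrays. Averaged probe sets gave -0.69, leaving out VEGFD replicate 1 gave -0.52, and leaving out VEGFD replicate 2 gave -1.87.

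Genes that fold, hydroxylate or cut collagens had changes in both directions, with more higher than lower. Of 12 tested folding and hydroxylation genes 8 were higher, 4 lower and 0 passed. Their median was 0.12, or 0.25 with arrays centred on their medians. Plod3, which encodes a lysyl hydroxylase with glycosyltransferase activity that collagen VI needs, had signals of 924 and 1149 in VEGFD arrays and 794 and 676 in Apex arrays and a log2 change of 0.48 ± 0.24 (SE). Plod2, another lysyl hydroxylase gene, had 0.57 ± 0.44, and P4ha2, a prolyl hydroxylase subunit gene, -0.57 ± 0.56. The Plod2 value was -0.071 without VEGFD replicate 1, and the P4ha2 value was 0.25 without VEGFD replicate 2. Of 5 tested protease genes 4 were higher, 1 lower and 0 passed, with a median of 0.15, or 0.27 with median centring. Mmp11, whose product cuts the α3 chain, had 0.46 ± 0.45, and Bmp1, whose product takes part in releasing the end of that chain, 0.27 ± 0.33. Without Apex replicate 2 these were -0.073 and -0.034. Mmp2 and Mmp14 had 0.011 ± 0.21 and -0.14 ± 0.22.

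**Figure D4:**
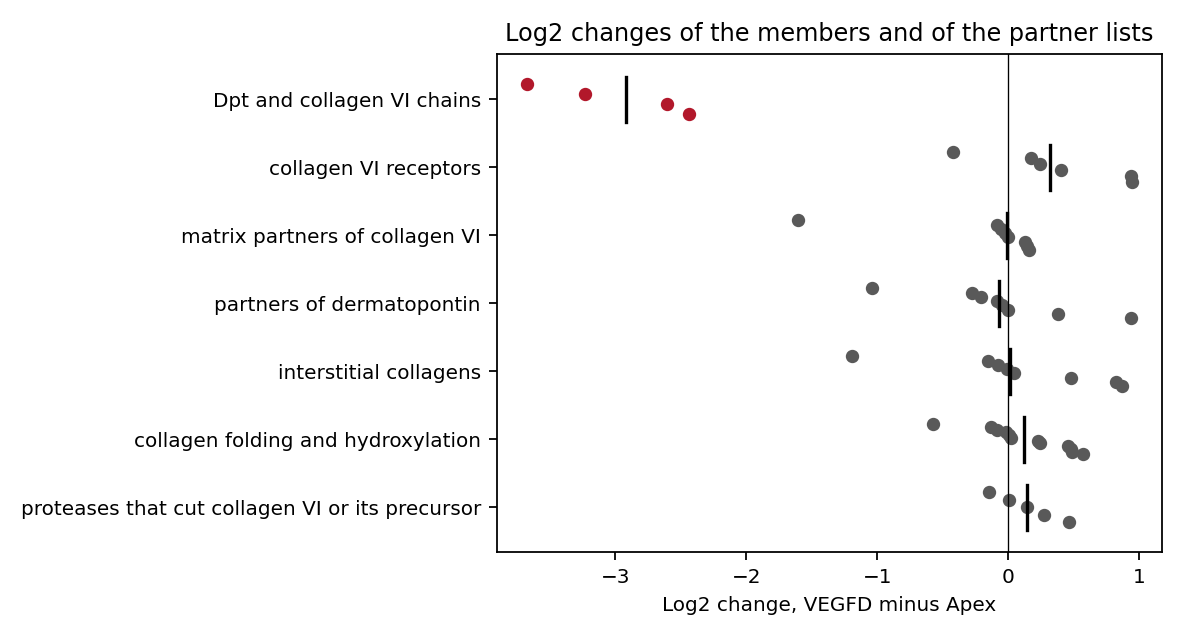
Log2 change (VEGFD minus Apex) of each tested gene in the 6 partner lists, with the 4 members in red above them; black bars are list medians. The members lie between -3.68 and -2.44, and every listed partner gene lies between -1.60 and 0.95. The members were chosen on this comparison and the partners were not, so the sizes are not set against each other.

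Fibroblast markers other than the 4 genes ranged from dim to among the brightest signals. Lum, Pi16 and Fap were too dim to be tested and differed in direction. Pi16, a marker of adventitial fibroblasts, had signals of 5.17 and 3.4 in VEGFD arrays and 55.9 and 11.2 in Apex arrays. Fap had 8.14 and 24.2 in VEGFD arrays and 26.3 and 29.0 in Apex arrays. Lum went the other way, with 25.5 and 22.7 in VEGFD arrays and 12.4 and 15.2 in Apex arrays. Of 11 tested markers 6 were higher and 5 lower in VEGFD arrays, 0 passed, and the median was 0.046. The summed signal of all 14 was 31406 and 30926 in VEGFD arrays and 27868 and 25492 in Apex arrays, so the VEGFD sums were above both Apex sums, and 12 and 11 of 14 markers exceeded the filter signal in VEGFD arrays, against 12 and 12 in Apex arrays. Pdgfra, which encodes a growth factor receptor of fibroblasts, had signals of 1493 and 729 in VEGFD arrays and 1158 and 727 in Apex arrays. Twist2, a transcription factor gene of dermal mesenchyme, was the 1 marker at least 2-fold lower without overlap. It had 168 and 415 in VEGFD arrays and 461 and 680 in Apex arrays (-1.03 ± 0.46, limma adjusted p = 0.825). Mfap5 was higher without overlap, by less than 2-fold, at 5741 and 5476 in VEGFD arrays and 4144 and 2366 in Apex arrays. Its log2 change was 0.84 ± 0.31 (limma adjusted p = 0.825), and that of Col1a1 was 0.82 ± 0.55 (SE), with overlap. The defining markers Col1a1, Col1a2 and Col3a1 were far above 0 on every array, the lowest being Col1a1 in Apex replicate 2 (862).

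**Figure D5:**
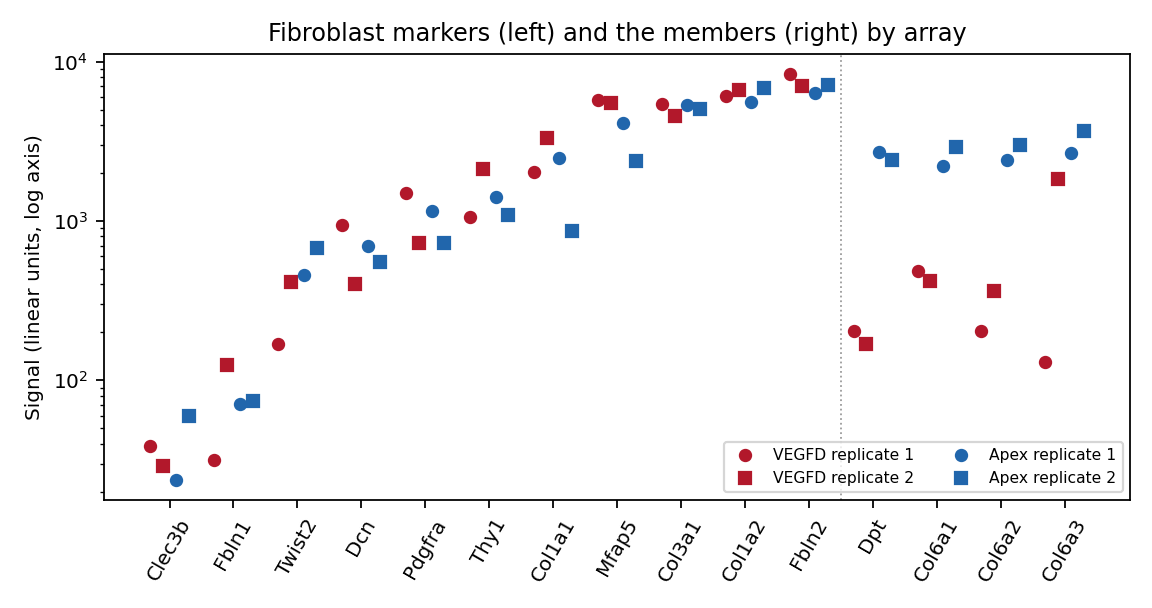
Signal (log axis) of the 11 tested fibroblast markers, left of the dotted line, and of the 4 genes, right of it, on each VEGFD array (red) and Apex array (blue). Most markers have overlapping groups. The 4 genes were chosen on this comparison, so their lack of overlap was set by that choice. Over all 11680 tested genes, 21.8% were lower and 16.6% higher in VEGFD arrays without overlap.

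Markers of other cells differed between the groups or between single arrays. Over all tested genes 53.7% were lower in VEGFD arrays, 21.8% were lower without overlap and 16.6% were higher without overlap. At least 2-fold and without overlap, 2.76% were lower and 1.06% higher. Of 7 tested smooth muscle markers 6 were higher in VEGFD arrays, with a median log2 change of 0.79. Tagln, which encodes the actin-binding protein transgelin, had signals of 1632 and 5553 in VEGFD arrays and 454 and 746 in Apex arrays, and Myl9, a myosin light chain gene, had 638 and 2387 in VEGFD arrays and 421 and 217 in Apex arrays. These 2 were at least 2-fold higher without overlap, while Des, the desmin gene, was at least 2-fold lower without overlap and Myh11 lay below 25.3 on every array. All 5 tested adipocyte markers were lower in VEGFD arrays, each without overlap. Their summed signal, over 8 measured genes, was 3858 and 3137 in VEGFD arrays and 6409 and 8123 in Apex arrays. Most of it was Lpl (2639 and 1893 in VEGFD arrays, 4309 and 3532 in Apex arrays) and Fabp4 (1098 and 1047 in VEGFD arrays, 1740.5 and 4073 in Apex arrays). Cidec and Lep lay below 25.3 on every array. The defining marker Adipoq was at 12.7 and 12.5 in VEGFD arrays and 38.3 and 145 in Apex arrays. All 3 tested pericyte markers were lower, with overlap for Rgs5, and had sums over 5 genes of 2276 and 1351 in VEGFD arrays and 3139 and 3805 in Apex arrays, most of it Pdgfrb (2123 and 1268 in VEGFD arrays, 2978 and 3479 in Apex arrays), and Kcnj8 and Abcc9 lay below 25.3 on every array. Of 7 tested epithelial markers 6 were lower, 4 of them without overlap, with sums over 9 genes of 879 and 428 in VEGFD arrays and 1118 and 1289 in Apex arrays, and Cdh1 and Krt14 lay below 25.3 on every array. All 9 tested pan-endothelial markers had means below those of the Apex arrays, but the groups overlapped for every one, and Cdh5 and Kdr, at -0.029 and -0.095, lay within the shift of 0.12 between scalings. Their sums over 14 genes were 1283 and 553 in VEGFD arrays and 819 and 4365 in Apex arrays, with Apex replicate 2 far above the rest, as for Emcn, the endomucin gene (106 and 24.0 in VEGFD arrays, 48.4 and 2670 in Apex arrays). No gene of these lists passed. The part of these cell types in the signals of Dpt and the collagen VI genes was not tested.

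Leukocyte markers, which mark blood cells, overlapped between groups for all 5 tested genes. The sum over 9 genes was 654 and 807 in VEGFD arrays and 790 and 718 in Apex arrays, and Ptprc, which encodes CD45, was at most 13.0. Of 4 mesothelial markers only Msln was bright enough to be tested, at 197 and 17.4 in VEGFD arrays and 235 and 656 in Apex arrays. Sums over 9 lymphatic markers were 1982 and 2431 in VEGFD arrays and 1481 and 3113 in Apex arrays, and sums over 3 Schwann cell markers were 262 and 121 in VEGFD arrays and 327 and 205 in Apex arrays.

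The tested genes whose profiles over the 4 arrays were most like those of the members were ranked by Euclidean distance on the log2(signal + 16) scale after each gene's mean was subtracted. Profiles of 4 points are short, and likeness to genes chosen for a group difference mostly restates that difference, so these are given with no test. Nearest to Dpt were Gas1, a growth arrest gene (distance 0.89), Apod, the gene of the lipid carrier apolipoprotein D (1.06), Cbln2 (1.07) and Cdh13, the T-cadherin gene (1.15). Apod had signals of 231 and 89.5 in VEGFD arrays and 1253 and 2360 in Apex arrays. Nearest to Col6a1 were Serpinb9g (0.20), Frmd4b (0.22), Cbln2 (0.29) and Dnm1, the dynamin gene (0.36). VEGFD signals of these genes lay near or below 25.3, where the pseudocount of 16 shrinks log2 changes. Their mean Apex signals were 7.81, 7.19, 12.9 and 5.77 times their mean VEGFD signals, against 5.62 for Col6a1. Serpinb9g had signals of 36.5 and 23.0 in VEGFD arrays and 185 and 281 in Apex arrays.

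Nearest to Col6a2 were Lrrc17 (0.80), Mgp, which encodes the calcification inhibitor matrix Gla protein (0.81), Cbln2 (1.04) and Gas1 (1.17). Mgp had signals of 533 and 909 in VEGFD arrays and 3023 and 6269 in Apex arrays. Cbln2, near 3 of the 4 genes, had 16.5 and 8.41 in VEGFD arrays and 148 and 173 in Apex arrays. Its VEGFD signals lay below 25.3, and its log2 change of -2.65 shrank to -1.56 at a pseudocount of 64. When all probe sets of a gene were averaged, the log2 changes of Cdh13, Dnm1 and Lrrc17 were -1.72, -1.02 and -1.11, against -2.68, -2.09 and -2.54 with the brightest probe set.

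Col6a3 had no close match. Its nearest genes were S1pr3, which encodes a sphingosine 1-phosphate receptor (1.62), Cck (1.68), Ccl9 (1.70) and Tgfbi, which encodes a matrix protein that binds collagen VI (1.80). Tgfbi had signals of 38.4 and 155 in VEGFD arrays and 384 and 1506 in Apex arrays. S1pr3 had 291 and 2423 in VEGFD arrays and 1364 and 2375 in Apex arrays, so VEGFD replicate 1 was low and the groups overlapped. Leaving out VEGFD replicate 1 turned its log2 change of -1.07 to 0.43, and moved those of Cck and Ccl9 to -0.41 and -1.03, against -1.46 and -1.88 with all arrays. Among the members themselves Dpt and Col6a2 were the nearest pair (0.93), and Col6a3 lay 2.12 from Col6a2, 2.74 from Col6a1 and 3.00 from Dpt.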

How the data were processed

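RNA from 2 VEGFD and 2 Apex samples was measured on 1-colour Affymetrix mouse arrays after biotin labelling, per the labels' protocols. The deposited values are linear intensity, 1 signal per probe set. The sources used here give neither the algorithm behind them nor a genome build. Per the deposited intensity values, all arrays share a trimmed mean. The number of arrays limits the precision.

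Of 45101 probe sets, 64 were controls, 34945 named 1 gene, 932 several (no gene named) and 9160 were unnamed here. The probe set with the highest mean of log2(signal + 16) stood for each of 18193 genes, which for the 4 members is also the highest mean signal. A gene was tested when that mean reached the median over non-control probe sets (5.37, a signal of 25.3), as 11680 did. The two-sided test was limma's moderated one (version 3.58.1, R 4.3.3), with its prior variance following mean intensity. P-values were adjusted by Benjamini-Hochberg over these genes, and 0.05 was the threshold. With 2 arrays a group the smallest exact permutation p is 0.333. The procedure was tested on simulated data, where 0.6% of 2-fold, 36.3% of 4-fold and 79.6% of 8-fold changes passed. A gene that did not pass may therefore still differ between the groups.

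The members and gene lists were chosen with earlier results of these data known. The text names the members, the 4 genes nearest to each, and from each partner list the genes at least 2-fold apart or else the 2 with the largest change, and from each marker list up to 3 defining markers, with predicted genes left out among the nearest. Other genes named were chosen after their values were seen. Alternatives covered scaling, pseudocount, filter, averaged probe sets, the intensity trend, a replicate block and each array left out. Motifs were searched in RefSeq promoter windows. No protein sequences were used here.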

Additional observations from a re-analysis of the deposited data

How the results depend on the processing

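All 56 log2 changes of the 4 genes under the 14 alternatives were below 0, a direction that the choice of genes fixes. Dpt moved to -3.40 with a pseudocount of 64 and to -3.50 with arrays centred on the spiked controls, a scaling chosen after seeing the data. With 1 array left out the ranges were -3.80 to -3.55 for Dpt, -2.64 to -2.24 for Col6a1, -3.63 to -2.83 for Col6a2 and -4.43 to -0.78 for Col6a3, both ends of the last set by leaving out 1 VEGFD array. Centring arrays on their medians shifted the median change of all tested genes by 0.12, and centring on the spiked controls by 0.18, and the 4 genes shifted with it.

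The limma test passed 0 genes as reported, 6 with the replicate block, 18 with arrays centred on the spiked controls, and 0 to 390 with 1 array left out, the 390 without VEGFD replicate 1. The replicate block pairs same-numbered arrays only by number, and their deviations from the group means correlated at 0.197 over 11680 genes. Genes at least 2-fold lower without overlap numbered 158 with a pseudocount of 64, 151 with a stricter filter, 212 with averaged probe sets, and 318 to 810 with 1 array left out, where no overlap is easier to meet. The higher ones numbered 188 with median centring, 195 with the spiked controls, 70 with a pseudocount of 64, 74 with a stricter filter and 118 to 519 with 1 array left out. Among matrix partners of collagen VI, 0 to 1 passed with 1 array left out.

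List medians near 0 turned sign. The matrix partners were at 0.11 with median centring, 0.034 with quantile normalization, 0.014 with a pseudocount of 64, 0.17 with the spiked controls and -0.17 to 0.17 with 1 array left out. The partners of dermatopontin were at 0.055 with median centring, 0.12 with the spiked controls and -0.29 to 0.016 with 1 array left out. With 1 array left out the interstitial collagens ran from -0.041 to 0.16 and the proteases from -0.034 to 0.19. The log2 changes of 5 genes also turned sign with 1 array left out, over -1.39 to 0.25 for P4ha2, -0.071 to 1.21 for Plod2, -0.073 to 1.0 for Mmp11, -0.034 to 0.58 for Bmp1 and -2.57 to 0.43 for S1pr3. The cause was not tested.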

Other observations

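Genes next to the 4 on their chromosomes were looked at after the data were seen, taking the 3 nearest measured genes on each side. Of the genes next to Dpt, Atp1b1, which encodes a sodium pump subunit, had signals of 136 and 176 in VEGFD arrays and 386 and 598 in Apex arrays (log2 change -1.54). Blzf1 and Nme7, on the same side, had 0.40 and -0.15, and Tbx19 and Sft2d2, on the other side, had -0.33 and -0.062. Beside Col6a1 and Col6a2, which adjoin each other, Col18a1, the collagen XVIII gene, had 98.9 and 96.1 in VEGFD arrays and 240 and 168 in Apex arrays (-0.94). Pcbp3 had -0.61, Lss -0.19 and Slc19a1 0.084. Beside Col6a3, Mlph had 55.7 and 30.3 in VEGFD arrays and 111 and 96.5 in Apex arrays (-1.05). Cops8, Lrrfip1 and Ackr3 had 0.36, 0.45 and -0.13. The other neighbours, Xcl1, Spatc1l, Ftcd, Iqca and Rab17, were too dim to be tested. Over all tested genes 53.7% were lower in VEGFD arrays and 21.8% were lower without overlap.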
